A study of Mus musculus with 12 samples.

Results

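The GIMAP genes encode GTPases of immunity-associated proteins, a family of guanine nucleotide-binding proteins made mainly in lymphocytes. The 8 genes Gimap1, Gimap3, Gimap4, Gimap5, Gimap6, Gimap7, Gimap8 and Gimap9 were selected by gene name from the 24439 gene names measured in each library. All 8 passed the filter of more than 1 TPM (a transcript level per length, scaled to the library's total) in at least 1 library, as did 12442 genes in all. RNA-Seq had been performed on 12 libraries of mouse CD4 T blast cells (TB) in 4 groups of 3. Spleen CD4 T cells had been activated with 2 ug/ml of the mitogen Concanavalin A for 40 h and then expanded in 50 U/ml IL-2, for 30 h by the study's methods or 2 days by the labels. TB IL-2 cells stayed in IL-2, whereas IL-2 was withdrawn for 16 h from TB IL-2nil cells. TB+ IL-2 and TB+ IL-2nil cells were such cultures after 2 h of stimulation by PMA (20 ng/ml) and calcium ionophore (2 uM), together PMA/I, which bypass the T cell receptor. The methods name spleens of C42 mice, which carry a human IL3/CSF2 transgene on a C57BL/6J background, and of Jund+/+ and Jund-/- mice. The labels do not say which of these lines, or what age of mouse, gave the RNA libraries.

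Proteins of this family resemble the GTPases of the septin and dynamin type, and several are anchored in intracellular membranes. They are best known for keeping resting T cells alive: rats and mice without GIMAP5 lose most peripheral T cells, and loss of GIMAP1 depletes mature T and B cells. GIMAP3, GIMAP4 and GIMAP5 have been tied to BCL2 family proteins and T cell death, GIMAP6 to autophagy through the ATG8 family, and GIMAP7 to stimulation of GTP hydrolysis. Their transcripts are typically abundant in naive T cells, and IL-2, which drives T blasts to divide, signals largely through STAT5.

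The libraries labelled TB IL-2nil replicate 3 and TB+ IL-2 replicate 3 go against their labels, and each was placed in the other's group. This placement follows the study's own expression values, which were met by TPM of these libraries after quantile normalization (every library given the same set of values). The study's methods name upper-quartile scaling instead, and that scaling is used here. Every result below uses this placement unless another is named. The count of members passing the test is also given with the labels as deposited and without both libraries. Group names below follow the placement, so that TB IL-2nil replicate 3 is the library labelled TB+ IL-2 replicate 3. Levels are TPM made from the deposited FPKM values and scaled to a common upper quartile (scaled TPM). Differences are of log2(scaled TPM + 1), given with limma's standard error and with its P adjusted by Benjamini-Hochberg over all 12442 genes. The deposited FPKM values summed to between 193815 and 420487 per library. Their smallest steps put the depth of the libraries between 0.409 and 1.25 on a common relative scale, the shallowest being TB IL-2nil replicate 2. The 6 CD4 T cell markers present in the tables summed to between 1670 and 2364 scaled TPM over all libraries. This sum hides markers that moved in opposite directions. Cd4 ran from 122 to 145 in TB IL-2 and from 306 to 371 in TB IL-2nil. Thy1 ran from 630 to 827 in TB IL-2 and from 322 to 509 in TB IL-2nil. The 2 CD8 T cell markers summed to between 6.91 and 31.9 over all libraries, and the 3 NK cell markers to at most 0.303. Nothing states whether replicates came from separate mice, so P measures only the spread between these samples.

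On mm9 the 8 genes lay in a single cluster at chr6:48597233-48716518, a span of 119286 bases, in the order Gimap8, Gimap9, Gimap4, Gimap6, Gimap1, Gimap7, Gimap5 and Gimap3. Gimap6 and Gimap3 were on the minus strand and the other 6 on the plus strand. In the GENCODE vM1 annotation Gimap1 spanned chr6:48668606-48702599 and overlapped both Gimap7 (chr6:48668620-48674635) and Gimap5 (chr6:48696196-48704209). All 3 are on the plus strand, so strand cannot separate their reads. The authors quantified RefSeq models, and the RefSeq start of Gimap1, matched to mm9, lay at chr6:48689046, beyond the end of Gimap7.

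A feature of GTPases that was sought in all members is the P-loop, which holds the phosphates of the nucleotide. In each GENCODE coding sequence a run of codons for the P-loop pattern (glycine, any 4 residues, glycine, lysine, serine or threonine) was found once, except in Gimap8, where it occurred 3 times. Gimap8 also had the longest coding sequence, at 2067 bases, against 876 in Gimap9 to 987 in Gimap4 for the others. The first such run of each gene, all in coding exons on mm9, is shown to compare the members. Capitals mark the 11 of 24 bases that are equal in all 8 genes.
Gimap1, chr6:48692551-48692574, plus strand: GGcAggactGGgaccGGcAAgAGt
Gimap3, chr6:48715886-48715909, minus strand: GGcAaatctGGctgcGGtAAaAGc
Gimap4, chr6:48640420-48640443, plus strand: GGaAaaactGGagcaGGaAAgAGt
Gimap5, chr6:48702593-48702616, plus strand: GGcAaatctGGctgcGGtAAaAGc
Gimap6, chr6:48652749-48652772, minus strand: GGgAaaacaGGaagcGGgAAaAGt
Gimap7, chr6:48673523-48673546, plus strand: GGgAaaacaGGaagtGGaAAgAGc
Gimap8, chr6:48600255-48600278, plus strand: GGgAaacagGGcgcaGGcAAaAGt
Gimap9, chr6:48627522-48627545, plus strand: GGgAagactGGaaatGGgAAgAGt
The Gimap3 and Gimap5 runs were the same in all 24 bases, while no other pair of these 8 runs was. Over the whole coding sequence Gimap3 and Gimap5 were identical at 811 of 898 aligned bases (90.3%). Among the other 27 pairs of members the identity ranged from 55.9% (Gimap1 and Gimap9) to 73.9% (Gimap7 and Gimap8), and no exact stretch was longer than 17 bases. Bases opposite a gap were left out. The far longer Gimap8 was thus aligned only in part, so these percentages do not rank the pairs by relatedness. Gimap7 and Gimap8 shared no exact stretch longer than 12 bases. Gimap3 and Gimap5 shared an exact stretch of 140 bases, at coding bases 175 to 314 of Gimap3 (chr6:48715680-48715819, minus strand) and 187 to 326 of Gimap5 (chr6:48702683-48702822, plus strand). It is shown because a sequence read inside it could come from either gene.
Gimap3 and Gimap5 shared coding stretch: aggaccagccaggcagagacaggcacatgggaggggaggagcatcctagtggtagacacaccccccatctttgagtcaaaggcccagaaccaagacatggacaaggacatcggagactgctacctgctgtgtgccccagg
The last 60 coding bases, by contrast, tell the genes apart.
Gimap3 end of coding sequence, chr6:48715088-48715147, minus strand: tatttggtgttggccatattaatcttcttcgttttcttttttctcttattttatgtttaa
Gimap5 end of coding sequence, chr6:48703364-48703423, plus strand: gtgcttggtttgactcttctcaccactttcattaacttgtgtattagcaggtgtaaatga
The authors ran the aligner with default parameters, but how reads matching several places entered the levels is not given in the sources used here. The levels of Gimap3 and Gimap5 are uncertain to that extent.

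In TB IL-2 cells Gimap4 had the highest mean level, followed by Gimap3, Gimap6, Gimap1, Gimap9, Gimap7, Gimap8 and Gimap5. Since TPM is per length, these levels can be compared between genes, but the places of Gimap3 and Gimap5 are uncertain because of their shared sequence. In that group the ranges of every pair of neighbours in the order overlapped. Gimap4 averaged 410 ± 211 scaled TPM (SD, n = 3) in TB IL-2 and Gimap5 18.2 ± 9.69. In TB IL-2nil the order was Gimap4, Gimap6, Gimap3, Gimap1, Gimap7, Gimap9, Gimap8 and Gimap5. There the ranges did not overlap between Gimap3 and Gimap1 or between Gimap8 and Gimap5. In TB+ IL-2 Gimap5 stood behind Gimap4, Gimap3 and Gimap6 and ahead of Gimap1, Gimap9, Gimap8 and Gimap7. There the ranges overlapped between Gimap5 and Gimap1, Gimap3 and Gimap6, Gimap9 and Gimap8, and Gimap8 and Gimap7. In TB+ IL-2nil Gimap6 was first by its mean, followed by Gimap4, Gimap3, Gimap1, Gimap5, Gimap8, Gimap9 and Gimap7. There the ranges overlapped between Gimap6 and Gimap4, between Gimap4 and Gimap3, between Gimap8 and Gimap9 and between Gimap9 and Gimap7, and the other neighbours in the order were apart.

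**Figure D1:**
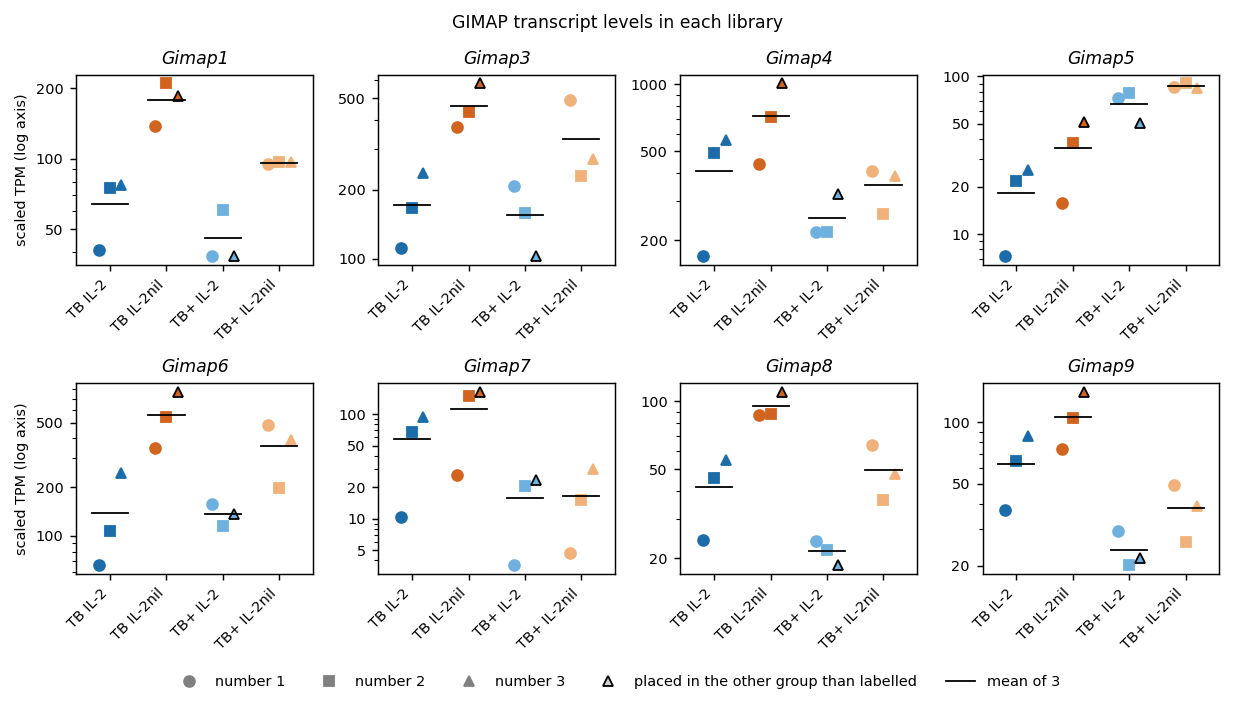
Scaled TPM (log axis, a separate range for each gene) of the 8 GIMAP genes in the 12 libraries, by group and replicate number, with the mean of 3 as a line. The libraries of TB IL-2nil lie above those of TB IL-2 for Gimap1, Gimap3, Gimap6 and Gimap8. For Gimap5 the PMA/I-treated libraries lie above the unstimulated ones of the same IL-2 state. Number 1 is the lowest of each group for Gimap7.

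The first comparison asked what IL-2 did to the family before stimulation. With IL-2 maintained, 4 of 8 GIMAP transcripts were lower than after withdrawal (Gimap1, Gimap3, Gimap6 and Gimap8), and the log2 differences of all 8 were below 0. At adjusted P under 0.05, 22.3% of all genes tested were lower in this comparison. The median log2 difference was -1.15 over the members and -0.13 over all genes, of which 57.2% lay below 0. The members' median was -0.69 without TB IL-2 replicate 1 and -0.53 with the labels as deposited. Gimap6 fell more than 3-fold, as did 2.73% of all genes. In 4 members, the same ones, the groups did not overlap and TB IL-2 was the lower, compared with 30.4% of all genes.

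Gimap6, whose protein has been linked to autophagy, showed the largest of these differences. It measured 66.2, 106.5 and 245.1 scaled TPM in TB IL-2 and 349.5, 540.5 and 772.2 in TB IL-2nil. All 3 libraries with IL-2 lay below all 3 without. The log2 difference was -2.12 ± 0.47 (SE, 95% interval -3.15 to -1.09, limma adjusted P = 0.00494), a level 4.35-fold lower with IL-2.

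Gimap1, needed for the survival of mature lymphocytes, measured 40.8, 75.1 and 77.0 scaled TPM in TB IL-2 and 138.3, 209.7 and 184.7 in TB IL-2nil. The groups did not overlap, and the difference was -1.49 ± 0.27 on the log2 scale (limma adjusted P = 0.00171), or 2.80-fold. Gimap3, a close relative of Gimap5, measured 110.8, 165.7 and 235.6 scaled TPM with IL-2 and 373.3, 434.5 and 581.1 without. Again no library with IL-2 reached the lowest without it. Its log2 difference was -1.48 ± 0.36 (limma adjusted P = 0.00835), or 2.78-fold.

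Gimap8, the member with 3 P-loop patterns, measured 24.1, 45.5 and 54.9 scaled TPM in TB IL-2 and 86.9, 88.0 and 110.3 in TB IL-2nil. The ranges were apart, with a log2 difference of -1.25 ± 0.29 (limma adjusted P = 0.00635), or 2.37-fold. These 4 calls held in each of the 12 fits that left out 1 library and in all 10 other settings that kept the placement.

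The other 4 members did not pass the test, and in each the groups overlapped. With quantile normalization Gimap4 and Gimap9 passed as well, at -1.34 and -0.94 (limma adjusted P = 0.0101 and 0.0389). Gimap4, the most abundant member here, measured 169.4, 494.5 and 565.4 scaled TPM in TB IL-2 and 440.2, 717.4 and 1013.1 in TB IL-2nil. Its log2 difference was -0.92 ± 0.44 (limma adjusted P = 0.119). Gimap5 differed by -0.92 ± 0.46 (limma adjusted P = 0.134) and Gimap9 by -0.79 ± 0.34 (limma adjusted P = 0.0858). Gimap7 had the widest spread: 10.3, 67.3 and 94.8 scaled TPM in TB IL-2 and 26.0, 149.5 and 163.2 in TB IL-2nil, with a log2 difference of -1.06 ± 0.999 (limma adjusted P = 0.423). In both groups the library of number 1 was by far the lowest for Gimap7. Within each of the numbers 1, 2 and 3 the log2 difference of Gimap7 was -1.26, -1.14 and -0.78. All 8 members were lower with IL-2 in 3 of 3 pairs of the same number. The members share these libraries, and the like share over all genes was not computed. With the replicate number as a block, the difference of Gimap7 was -1.06 ± 0.21 (limma adjusted P = 0.00329), so that 5 members passed.

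With the labels as deposited, no member passed in this comparison, and the log2 differences ran from -1.29 (Gimap6) to 0.09 (Gimap9). Without both exchanged libraries the same 4 genes passed, at differences of -1.45 for Gimap1, -1.30 for Gimap3, -1.85 for Gimap6 and -1.14 for Gimap8. In bulk RNA, fewer cells of a type and less RNA per cell cannot be told apart. Markers of B cells, which also make GIMAP proteins, moved with this comparison: the 5 markers summed to between 6.04 and 10.96 scaled TPM in TB IL-2 and to between 24.3 and 30.3 in TB IL-2nil, against a GIMAP sum of 466 to 1384 and 1504 to 3016. They were 2.36 to 3.69 in TB+ IL-2 and 5.66 to 13.3 in TB+ IL-2nil, and their part in the result was not tested. None of the 5 was at 0 in all libraries. Of the 4 endothelial markers, Pecam1, which T cells can also make, measured between 16.8 and 27.03 in TB IL-2 and between 75.8 and 84.3 in TB IL-2nil, while Cdh5, Kdr and Tek stayed at or below 0.167 in every library.

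**Figure D2:**
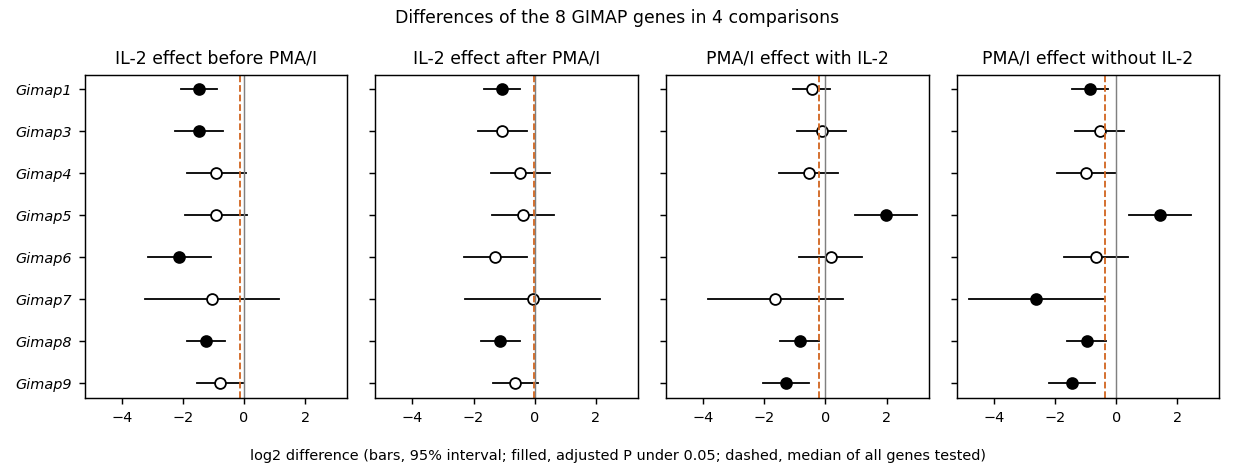
Log2 differences of the 8 GIMAP genes in 4 comparisons with 95% intervals from limma, filled where adjusted P was under 0.05, and the median of all genes tested as a dashed line. In the IL-2 comparison before PMA/I all 8 lie below 0, from -2.12 to -0.79, while Gimap5 lies above 0 in both PMA/I comparisons, at 1.97 and 1.44.

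The next comparison asked how PMA/I changed the family in cells kept in IL-2. Each group enters 2 of the comparisons given here, so they share libraries and are not independent. Gimap5 rose 3.92-fold, while Gimap9 and Gimap8 fell and the other 5 did not pass the test. Among all genes, 11.8% were higher and 23.3% lower at adjusted P under 0.05, and 3.94% were more than 3-fold higher. The groups were apart upwards in 1 member and downwards in 2, compared with 16.6% and 35.1% of all genes. The members' median was -0.50 and that of all genes -0.22. Without TB IL-2 replicates 1, 2 and 3 in turn the members' median was -0.92, -0.32 and -0.26, and with the labels as deposited it was 0.15.

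Gimap5, whose protein supports the survival of resting T cells, measured 7.3, 21.7 and 25.7 scaled TPM in TB IL-2 and 72.9, 78.1 and 50.5 in TB+ IL-2. Every stimulated library lay above every unstimulated one, and the log2 difference was 1.97 ± 0.46 (95% interval 0.95 to 2.98, limma adjusted P = 0.00732). This call held in 12 of 12 fits without 1 library and in the 10 other settings with the placement kept. With the labels as deposited the difference was 1.98 (limma adjusted P = 0.106).

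Gimap9 measured 37.1, 64.6 and 85.7 scaled TPM in TB IL-2 and 29.4, 20.2 and 21.8 in TB+ IL-2. The stimulated libraries were all lower, with a log2 difference of -1.30 ± 0.34 (limma adjusted P = 0.0129). The call was lost without TB IL-2 replicate 3, at -1.03 (limma adjusted P = 0.0545). Gimap8 measured 23.9, 21.9 and 18.7 scaled TPM in TB+ IL-2, just below the lowest TB IL-2 library at 24.1. Its difference of -0.85 ± 0.29 (limma adjusted P = 0.0416) passed in only 4 of 12 fits without 1 library, and the adjusted P was 0.124 without both exchanged libraries.

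The remaining members gave -0.46 ± 0.27 for Gimap1, -0.12 ± 0.36 for Gimap3, -0.55 ± 0.44 for Gimap4 and 0.17 ± 0.47 for Gimap6 on the log2 scale. Quantile normalization turned the direction of Gimap6, to -0.05. Gimap7 measured 3.6, 20.7 and 23.6 scaled TPM in TB+ IL-2, again lowest in number 1, and its difference was -1.63 ± 0.999 (limma adjusted P = 0.228). With the replicate block it was -1.63 ± 0.21 (limma adjusted P = 0.000403), since the fall was of like size in each number, at -1.29, -1.65 and -1.96. The counts were 1 member higher and 1 lower (Gimap5 and Gimap9) without both exchanged libraries, and 0 of 8 with the labels as deposited. Without TB IL-2 replicate 1, in which all 8 members were lowest of the group, 5 members passed, 4 of them lower. Without TB IL-2 replicate 3 only Gimap5 did.

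In cells that had lost IL-2, PMA/I lowered Gimap1, Gimap7, Gimap8 and Gimap9 and raised Gimap5. Over all genes 41.1% were lower and 20.1% higher at adjusted P under 0.05, and 10.7% were lower by more than 3-fold, as was Gimap7. The ranges of the groups were apart in 4 members downwards and 1 upwards, compared with 42.3% and 21.8% of all genes. The medians were -0.91 for the members and -0.38 for all genes, and the members' median was -0.12 with the labels as deposited and -1.45 with no scaling.

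Gimap7 measured 26.0, 149.5 and 163.2 scaled TPM in TB IL-2nil and 4.7, 15.03 and 30.1 in TB+ IL-2nil. The groups overlapped through the low number 1 library of TB IL-2nil. The log2 difference was -2.62 ± 0.999 (limma adjusted P = 0.0397), a level 6.16-fold lower, and it was -2.24, -3.23 and -2.40 within the numbers 1, 2 and 3. The call held in 8 of 12 fits without 1 library and in 6 of 10 other settings, and with the replicate block the adjusted P was 1.09e-05.

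Gimap9 fell from 74.3, 104.3 and 140.3 scaled TPM in TB IL-2nil to 49.7, 26.1 and 38.9 in TB+ IL-2nil, by 1.45 ± 0.34 on the log2 scale (limma adjusted P = 0.00331). The groups were apart, and the call held in 12 of 12 fits without 1 library. Gimap8, at 64.0, 36.5 and 47.8 scaled TPM in TB+ IL-2nil, lay below all its TB IL-2nil libraries, with a difference of -0.96 ± 0.29 (limma adjusted P = 0.0139). Gimap1 was at 94.6, 97.2 and 96.9 in TB+ IL-2nil, also below all of TB IL-2nil, and differed by -0.86 ± 0.27 (limma adjusted P = 0.0164).

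Gimap5 moved the other way. It measured 15.8, 37.9 and 51.1 scaled TPM in TB IL-2nil and 85.3, 90.6 and 84.8 in TB+ IL-2nil, with every stimulated library higher. The difference was 1.44 ± 0.46 (limma adjusted P = 0.0186), or 2.71-fold. The direction was the same with no scaling between libraries, which moved the median of all genes in this comparison by a further -0.40, but the call was not: the difference was then 0.90 (limma adjusted P = 0.0613). It was also lost without TB IL-2nil replicate 1, at 0.96 (limma adjusted P = 0.0749).

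Gimap3, Gimap4 and Gimap6 gave -0.54 ± 0.36, -0.98 ± 0.44 and -0.66 ± 0.47 (limma adjusted P = 0.217, 0.0717 and 0.242). With the replicate block Gimap4 passed as well (limma adjusted P = 0.0306), for 6 members in all. With no scaling between libraries 7 members were lower at adjusted P under 0.05. Without both exchanged libraries 2 members passed, Gimap9 at -1.23 and Gimap5 at 1.78, and with the labels as deposited none did. Without TB IL-2nil replicate 2 or without TB+ IL-2nil replicate 2 the count was 3.

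After PMA/I, IL-2 still went with lower levels of Gimap1 and Gimap8. At adjusted P under 0.05, 8.4% of all genes were lower in TB+ IL-2 than in TB+ IL-2nil. In 5 members (Gimap1, Gimap3, Gimap5, Gimap6 and Gimap8) the groups were apart with TB+ IL-2 lower, compared with 18.3% of all genes. The medians were -0.85 for the members and -0.04 for all genes, and the members' median was -0.27 with the labels as deposited and -0.46 with no scaling.

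Gimap1 measured 38.6, 60.4 and 38.5 scaled TPM in TB+ IL-2 and 94.6, 97.2 and 96.9 in TB+ IL-2nil, a log2 difference of -1.09 ± 0.27 (limma adjusted P = 0.016). The 3 libraries without IL-2 lay close together, at a SD of 1.40. Gimap8, at 23.9, 21.9 and 18.7 against 64.0, 36.5 and 47.8, differed by -1.13 ± 0.29 (limma adjusted P = 0.0187). Gimap6 measured 157.6, 115.0 and 135.5 in TB+ IL-2 and 481.2, 197.2 and 389.9 in TB+ IL-2nil. Its difference of -1.30 ± 0.47 did not pass (limma adjusted P = 0.0719), but did with the replicate block (limma adjusted P = 0.038). Gimap3 measured 206.5, 158.0 and 102.6 in TB+ IL-2 and 491.6, 230.0 and 272.4 in TB+ IL-2nil, and gave -1.06 ± 0.36 (limma adjusted P = 0.0584).

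Gimap4, Gimap5, Gimap7 and Gimap9 gave -0.48 ± 0.44, -0.39 ± 0.46, -0.07 ± 0.999 and -0.63 ± 0.34. These calls were not steady. No member passed with the labels as deposited, without both exchanged libraries, without TB+ IL-2 replicate 3 alone or with no scaling between libraries. Only Gimap1 passed without TB+ IL-2nil replicate 1, and 4 members passed without TB IL-2 replicate 1 or without TB+ IL-2nil replicate 2.

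Whether the response to PMA/I depended on IL-2 was tested as an interaction. None of the 8 members passed by limma at adjusted P under 0.05, and none had an unadjusted P under 0.05, while 2.66% of all genes were called below 0 and 1.57% above. All 8 estimates were above 0, from 0.11 ± 0.41 for Gimap8 to 0.99 ± 1.41 for Gimap7. Most genes also lay above 0, with 39.5% of all genes below it. The medians were 0.43 for the members and 0.16 for all genes. For Gimap6 the 95% interval ran from -0.63 to 2.28. No difference between its responses was detected, but any value in this interval is compatible with these libraries.

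The make-up of the family shifted along with its level. The 8 members summed to 964 ± 464 scaled TPM in TB IL-2, 2267 ± 756 in TB IL-2nil, 718 ± 29.4 in TB+ IL-2 and 1327 ± 365 in TB+ IL-2nil (SD, n = 3). Gimap6 made up 14.2%, 10.2% and 17.7% of this sum in the libraries of TB IL-2 and 23.2%, 23.7% and 25.6% in those of TB IL-2nil. Gimap4 made up 36.4%, 47.5% and 40.8% in TB IL-2 and 29.3%, 31.4% and 33.6% in TB IL-2nil. Both shares were apart between these groups, Gimap6 upwards and Gimap4 downwards without IL-2. The share of Gimap9 was apart as well, at 7.96%, 6.21% and 6.19% in TB IL-2 and 4.94%, 4.57% and 4.65% in TB IL-2nil. The shares of the other members overlapped between these groups, and no share was tested. The share of Gimap5 was between 1.05% and 2.08% in the 6 unstimulated libraries and between 5.07% and 11.3% in the 6 stimulated ones.

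**Figure D3:**
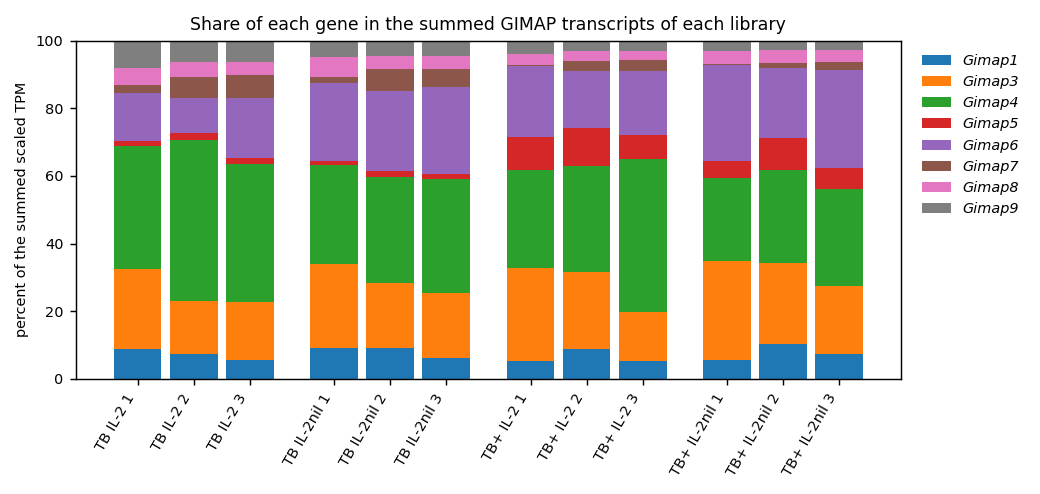
Share of each of the 8 genes in the summed scaled TPM of the family (percent, bars stacked to 100) in each of the 12 libraries by group and number. The share of Gimap5 is at most 2.08% in the unstimulated libraries and at least 5.07% in the stimulated ones.

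Gimap5 and Gimap3, which share most of their coding sequence, stood in different ratios with and without PMA/I. Gimap5 stood at 6.55%, 13.1% and 10.9% of the Gimap3 level in TB IL-2 and at 4.24%, 8.71% and 8.79% in TB IL-2nil. In TB+ IL-2 it stood at 35.3%, 49.4% and 49.2%, and in TB+ IL-2nil at 17.3%, 39.4% and 31.1%. All 6 stimulated libraries were above all 6 unstimulated ones. The log2 ratio of Gimap5 to Gimap3 was higher by 2.03 with PMA/I, averaged over both IL-2 states, and by 1.21 with the labels as deposited. The ratio was chosen after these values were seen, so it is given with no test.

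**Figure D4:**
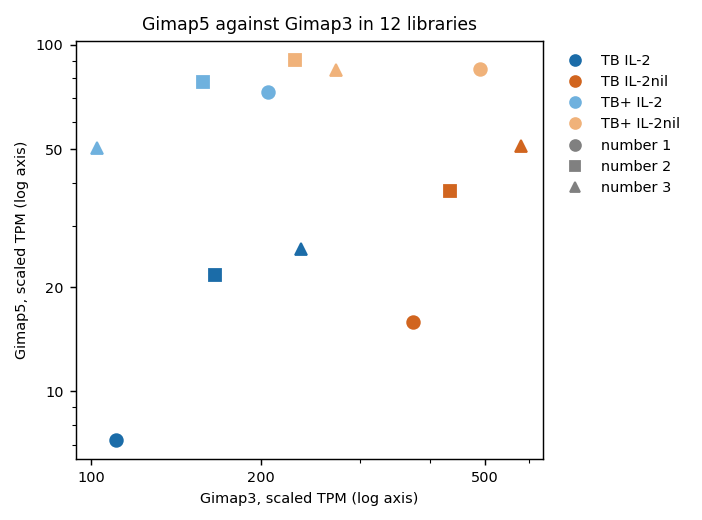
Scaled TPM of Gimap5 against Gimap3 (both axes log) in the 12 libraries, by group and replicate number. At like levels of Gimap3 the stimulated libraries lie above the unstimulated ones for Gimap5. Its level ran from 50.5 to 90.6 with PMA/I and from 7.3 to 51.1 without.

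Across the 12 libraries, which share the 4 conditions, the members' log2 levels varied together to different degrees (Pearson r, given as a description). Gimap3 and Gimap6 were the most alike (r = 0.94), followed by Gimap1 and Gimap8 (r = 0.93). Gimap5 stood apart, with r between -0.34 (with Gimap9) and 0.36 (with Gimap6). Gimap7 was most like Gimap4 (r = 0.81) and least like Gimap5 (r = -0.21).

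Among all genes tested, the profile closest to the members' mean was that of Sh3kbp1, an endocytic adaptor (r = 0.95 over 12 libraries), and next came Stat4, the signal transducer of IL-12 (r = 0.95). Stat4 averaged 59.5 scaled TPM in TB IL-2, 174.7 in TB IL-2nil, 54.2 in TB+ IL-2 and 81.1 in TB+ IL-2nil. Dus3l, Axl and Hpcal1 followed (r = 0.94, 0.93 and 0.93). Gimap5 was closest to Cxcr3, a chemokine receptor of activated T cells (r = 0.97), which averaged 46.4, 114.1, 170.9 and 305.4 scaled TPM in the same order of groups, and then to Papd4 (r = 0.97). Gimap8 was closest to Satb1, a chromatin organiser of thymocytes and naive T cells (r = 0.97), and then to Sp4 (r = 0.95). Gimap6 was closest to Hvcn1, a voltage-gated proton channel (r = 0.96), and then to Epc2 (r = 0.95), and Gimap1 to Mynn and Gmfg (r = 0.96 and 0.95). The nearest genes to Gimap3 were Rusc1 and Gimap6 itself, to Gimap4 Cd164 and Pgap3, to Gimap7 Gm27162 and Fuca2, and to Gimap9 Iqcg and F8a, all with r between 0.93 and 0.96.

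The cluster was also compared with the genes around it. Of 19 genes in the tables within 500000 bases of its ends, 10 passed the filter. Before PMA/I, 2 of the 10 were lower with IL-2 (Krba1 and Lrrc61) and 2 higher (Repin1 and Tmem176a), and the median of the 10 was -0.11. Of all genes tested, 22.3% were lower and 17.3% higher. These called neighbours had low mean levels, from 2.05 (Repin1) to 10.98 (Lrrc61) scaled TPM, both in TB IL-2nil. Krba1 differed by -1.30 ± 0.25 and Lrrc61 by -0.97 ± 0.23, whereas Repin1 differed by 0.63 ± 0.18 and Tmem176a by 0.83 ± 0.25 (limma adjusted P = 0.00221, 0.00725, 0.0165 and 0.0207). Lower and higher genes thus stood on the Gimap8 side of the cluster, and the nearest neighbour there that passed the filter, Zfp775, gave -0.29 (limma adjusted P = 0.197). Under PMA/I with IL-2, 4 of the 10 neighbours were lower by limma (Krba1, Zfp467, Lrrc61 and Zfp775) and 1 was higher (Tra2a). Of all genes, 23.3% were lower and 11.8% higher. Under PMA/I without IL-2 the same 4 and Tmem176b were lower, and Tra2a and Repin1 higher, compared with 41.1% and 20.1% of all genes. After PMA/I, 2 were higher with IL-2 (Tmem176a and Tmem176b) and none lower, compared with 12.9% and 8.4% of all genes.

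**Figure D5:**
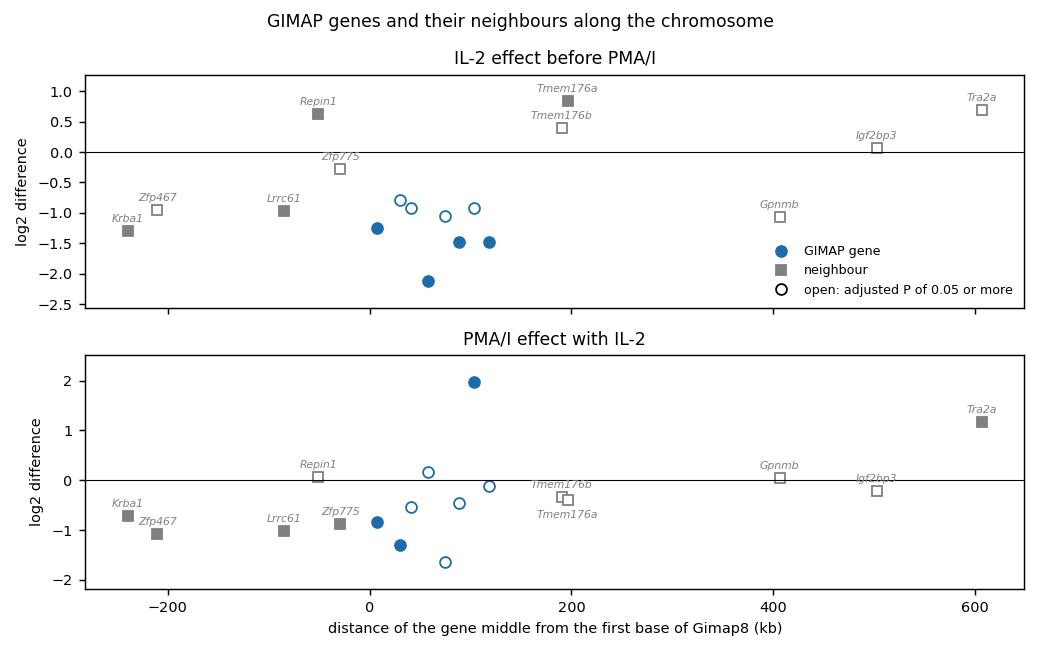
Log2 differences of the 8 GIMAP genes (circles) and 10 neighbours (squares) against the distance of the middle of each gene from the first base of Gimap8 (kb), for the IL-2 comparison before PMA/I and for PMA/I with IL-2, filled where adjusted P was under 0.05. The 8 GIMAP genes lie below 0 in the upper panel, while the 10 neighbours lie on both sides, and Gimap5 is the highest point of the lower panel at 1.97.

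The promoters of the 4 genes that were lower with IL-2, and that of Gimap5, are printed as RefSeq gives them on GRCm38.p6, from 250 bases before to 50 after the annotated start of transcription. For Gimap8, which has 2 annotated starts, the window of the start farther downstream is shown, because it holds a motif match. That start lay 127 bases from the GENCODE start, which the other RefSeq start met. The window of that other start (chr6:48646984-48647283) held no match. RefSeq and GENCODE place some starts differently: on mm9 the RefSeq start of Gimap1 lay 20440 bases downstream of the GENCODE one, and that of Gimap3 lay 4332 bases upstream, while the other 6 genes had a RefSeq start within 29 bases. The windows and motif positions refer to the RefSeq starts. The search covered 6 motifs on either strand, and capitals mark matches to those found in any GIMAP window. These were the STAT motif TTCNNNGAA, the RUNX motif TGTGGT and the FOXO motif TGTTTAC. IL-2 acts through STAT5, and RUNX and FOXO factors act in resting T cells.
Gimap1 promoter, chr6:48738797-48739096, plus strand: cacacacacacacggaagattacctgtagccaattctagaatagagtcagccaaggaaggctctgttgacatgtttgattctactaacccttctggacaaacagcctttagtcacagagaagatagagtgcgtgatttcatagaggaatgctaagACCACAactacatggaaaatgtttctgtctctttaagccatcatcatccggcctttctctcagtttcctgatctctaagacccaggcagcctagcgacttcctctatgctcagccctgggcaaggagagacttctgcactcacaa
Gimap3 promoter, chr6:48770802-48771101, minus strand: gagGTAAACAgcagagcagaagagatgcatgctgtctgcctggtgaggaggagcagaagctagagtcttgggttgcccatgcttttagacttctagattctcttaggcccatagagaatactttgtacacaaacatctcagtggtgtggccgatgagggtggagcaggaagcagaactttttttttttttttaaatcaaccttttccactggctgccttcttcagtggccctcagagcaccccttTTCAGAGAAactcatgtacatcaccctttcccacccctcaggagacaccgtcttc
Gimap6 promoter, chr6:48708195-48708494, minus strand: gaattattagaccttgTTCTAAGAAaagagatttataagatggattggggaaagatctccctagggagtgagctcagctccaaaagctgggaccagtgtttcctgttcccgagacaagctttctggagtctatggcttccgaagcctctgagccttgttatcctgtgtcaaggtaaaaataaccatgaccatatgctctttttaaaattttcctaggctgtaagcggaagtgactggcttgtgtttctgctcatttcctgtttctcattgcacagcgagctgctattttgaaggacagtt
Gimap8 promoter, chr6:48647111-48647410, plus strand: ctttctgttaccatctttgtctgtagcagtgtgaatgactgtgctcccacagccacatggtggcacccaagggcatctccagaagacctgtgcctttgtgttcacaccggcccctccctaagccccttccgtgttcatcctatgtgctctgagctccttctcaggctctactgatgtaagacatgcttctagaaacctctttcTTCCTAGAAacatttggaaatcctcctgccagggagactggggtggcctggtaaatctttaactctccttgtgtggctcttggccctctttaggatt
Gimap5 promoter, chr6:48745947-48746246, plus strand: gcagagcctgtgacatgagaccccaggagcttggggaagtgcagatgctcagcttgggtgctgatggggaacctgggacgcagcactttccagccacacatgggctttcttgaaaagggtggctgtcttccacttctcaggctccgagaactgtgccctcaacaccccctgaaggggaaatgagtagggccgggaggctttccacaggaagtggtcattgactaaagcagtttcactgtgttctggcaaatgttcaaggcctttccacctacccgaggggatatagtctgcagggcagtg
The STAT letters were in 4 of 9 GIMAP windows, and in 8.30% of all 32851 promoter windows of the same length. Counted from the start of transcription, with the first transcribed base as 1, they began at -5 in Gimap3, -47 in Gimap8, -234 in Gimap6 and 41 in Gimap7. The RUNX letters were in 3 windows (Gimap1, Gimap4 and Gimap7) and in 16.8% of all, and the FOXO letters were in that of Gimap3 and in 3.65% of all. No match overlapped another. The AP-1 letters TGANTCA, the ETS letters CCGGAA and the KLF letters CCACACCC were in no GIMAP window, and in 7.81%, 14.9% and 3.56% of all windows. The windows of Gimap5 and Gimap9 and the upstream window of Gimap8 held none of the 6 motifs. A match is a run of letters and not evidence of binding.

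Genes that share pathways with the family were read from lists. The survival list held 10 genes of the BCL2 family, all tested, of which 3 were higher and 3 lower with IL-2 before PMA/I (median log2 difference 0.38). Of all genes, 17.3% were higher and 22.3% lower at adjusted P under 0.05. Bcl2l1, which encodes the survival protein BCL-XL, averaged 50.1 ± 12.2 scaled TPM in TB IL-2 and 13.9 ± 2.62 in TB IL-2nil (log2 difference 1.76 ± 0.26, limma adjusted P = 0.000615). Bcl2, a survival gene, was higher by 1.98 ± 0.38 and Bak1, a pore former of apoptosis, by 0.97 ± 0.26 (limma adjusted P = 0.00235 and 0.0123). Bcl2l11, which encodes the death protein BIM, averaged 33.7 ± 4.61 with IL-2 and 114 ± 32.6 without, and fell by 1.69 ± 0.22 (limma adjusted P = 0.00032). Mcl1, which favours survival, and Bbc3, which promotes death, were lower as well, with differences of -0.66 ± 0.14 and -1.65 ± 0.41 (limma adjusted P = 0.0035 and 0.00943). The counts were 2 higher and 2 lower for PMA/I with IL-2, 5 and 2 for PMA/I without IL-2, and 1 and 1 for IL-2 after PMA/I. In the same order, the shares of all genes were 11.8% and 23.3%, 20.1% and 41.1%, and 12.9% and 8.4%.

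The autophagy list, chosen around the ATG8 family that GIMAP6 binds, held 10 genes. With IL-2 before PMA/I, 5 were lower and none higher by limma, compared with 22.3% and 17.3% of all genes. The median of the list was -0.44. Map1lc3b, an ATG8 gene, averaged 50.3 ± 4.90 scaled TPM in TB IL-2 and 124 ± 13.8 in TB IL-2nil (-1.28 ± 0.20, limma adjusted P = 0.00086). Gabarapl2, whose protein is the known partner of GIMAP6, differed by -0.84 ± 0.17 (limma adjusted P = 0.00323). Sqstm1, a cargo receptor, Ulk1, an initiating kinase, and Gabarap, another ATG8 gene, were lower too. PMA/I raised 3 and lowered 1 with IL-2, raised 2 and lowered 3 without, and IL-2 after PMA/I went with 1 lower gene (Map1lc3a). The shares of all genes in these comparisons are those given for the survival list.

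The naive T cell list held 10 genes, and some of them were known to differ in these samples when the list was drawn up, so its direction is not independent evidence. With IL-2 before PMA/I, 9 were lower and none higher by limma, compared with 22.3% and 17.3% of all genes. The median of the list was -1.56. Il7r, the IL-7 receptor chain that sustains resting T cells, averaged 54.5 ± 37.0 scaled TPM with IL-2 and 588 ± 235 without (-3.54 ± 0.49, limma adjusted P = 0.000406). Bach2, a repressor of effector genes, differed by -1.75 ± 0.27 (limma adjusted P = 0.00071). PMA/I lowered 5 with IL-2 and 9 without it, and after PMA/I 4 were lower with IL-2. The shares of all genes lower were 23.3%, 41.1% and 8.4%.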

How the data were processed

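RNA-Seq of total RNA, depleted of ribosomal RNA, was performed by the authors on 12 libraries. Their paired-end reads passed through Trimmomatic 0.32, HISAT2 2.1.0 (genome mm9) and StringTie 1.3.3 (RefSeq genes). The deposited values are FPKM per gene, although the methods name TPM. The libraries were made with a directional kit, and HISAT2 was run with default parameters. How StringTie then handled strand and reads matching several places is not given in the sources used here.

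Each library's FPKM were divided by their sum and multiplied by 1000000, giving TPM. A gene was tested if any library held it above 1 TPM, and the 75th percentile of each library was set to the mean of all. Values of log2(TPM + 1) were tested with limma 3.58.1 in R 4.3.3 in a single fit of 4 groups with 8 residual degrees of freedom, with Benjamini-Hochberg adjustment, after tests on simulated data. Fold changes are on this scale and understate those of low genes. More than 3-fold with adjusted P under 0.05 was the stricter call. The replicate numbers of the labels were checked for pairing: deviations from the group means correlated between same-numbered libraries of different groups at r between 0.101 and 0.531 in 18 of 18 pairs. They were treated as paired in the fits with a replicate block. With the labels as deposited, 11 of 18 pairs were above 0.1.

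Members and lists were chosen with earlier results of these data known. Named genes were the 8 members, the genes with smallest P in each list, neighbours within 500000 bases that passed the test, and the genes most alike by Pearson r (5 for the mean profile, 2 per member). Bak1, Bbc3, Gabarap and Map1lc3a were named after their values were seen. Not every gene that this rule could name is reported here. Positions came from GENCODE vM1 on NCBIM37, and coding sequences from its transcripts. Promoters came from RefSeq, with 9 windows matched to the 8 symbols. Alternatives covered placement, pseudocount, filter, scaling, model and each library left out.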

Additional observations from a re-analysis of the deposited data

How the results depend on the processing

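The counts of members with adjusted P under 0.05 (4 for IL-2 before PMA/I, 3 for PMA/I with IL-2, 5 for PMA/I without IL-2, 2 for IL-2 after PMA/I and 0 for the interaction) depended most on the placement of 2 libraries. With the labels as deposited all 5 counts were 0, with or without the replicate block (the fit of the block with the labels was chosen after seeing the data). Without both exchanged libraries the counts were 4, 2, 2, 0 and 0. With quantile normalization 6 members were lower for IL-2 before PMA/I, 3 of them by more than 3-fold. For PMA/I 1 was higher and 1 lower with IL-2, and 1 higher and 6 lower without it. For IL-2 after PMA/I 3 were lower, and none passed in the interaction. With no scaling the count for IL-2 after PMA/I was 0, and the median of all genes moved by -0.40 for PMA/I without IL-2 and by 0.27 for IL-2 after PMA/I. Leaving out each library gave 4 to 5, 1 to 5, 3 to 6, 0 to 4 and 0 members. The replicate block gave counts of 5, 4, 6, 3 and 0 in the paired fits, and beyond the members named in the text it changed no other call. The cause of these changes was not tested.

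Directions turned with the labels as deposited, with the same values under the replicate block, for Gimap9 in IL-2 before PMA/I (0.086), for Gimap1, Gimap3 and Gimap4 in PMA/I with IL-2 (0.29, 0.71 and 0.0052), for Gimap3 and Gimap6 in PMA/I without IL-2 (0.29 and 0.18) and for Gimap4, Gimap7 and Gimap9 in IL-2 after PMA/I (0.072, 0.84 and 0.24). Without both exchanged libraries Gimap3 turned to 0.15 in PMA/I with IL-2, and Gimap4 and Gimap9 to -0.026 and -0.0076 in the interaction. Gimap6 turned to -0.047 in PMA/I with IL-2 under quantile normalization, and Gimap7 to 0.26 in IL-2 after PMA/I with no scaling. With single libraries left out, 12 of 480 estimates turned, and the ranges over the 12 fits were -0.40 to 0.15 for Gimap3 and -0.26 to 0.68 for Gimap6 in PMA/I with IL-2, -0.73 to 0.70 for Gimap7 in IL-2 after PMA/I, and in the interaction -0.11 to 0.76 for Gimap4, -0.23 to 0.35 for Gimap8 and -0.17 to 0.42 for Gimap9. None of the turned estimates had an adjusted P under 0.05. With 3 libraries per group and FPKM values, the counting error of single genes is not known.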
